A study of Mus musculus with 16 samples.

Results

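The genes described here mark Schwann cells, the glial cells of peripheral nerve, and the axons they wrap: Pmp22, Mbp, Prx, S100b, Sox10, Ngfr, Gap43 and Gfap. The members are all probes of an Illumina expression BeadChip whose listed symbol equals 1 of these 8 symbols, whatever their values, which gave 12 of 25697 probes and 7 of the 8 genes. Sox10, which had no probe under that symbol, is not analysed here. RNA came from hamstring muscle of female mice 2 days after surgery, with 4 arrays in each of 4 groups. SCI+CDTX mice had spinal cord injury (SCI) between lower thoracic vertebrae and cardiotoxin (CDTX), a component of snake venom that kills muscle fibres, injected into the muscle. SCI+Saline mice had the same injury with saline, Sham+CDTX mice had sham surgery with CDTX, and Sham+Saline mice had sham surgery with saline. Per the series' design text, SCI+CDTX is the condition in which bone forms in the muscle. The strain and age of the mice are not given in the sources used here. The authors left out the array SCI+CDTX 2, so comparisons use 15 arrays, 3 of them SCI+CDTX.

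Schwann cells of motor and sensory nerve branches wrap axons in myelin, and terminal Schwann cells cap the nerve ending at the muscle fibre. When an axon degenerates, myelinating Schwann cells lower their myelin genes and take up a repair state marked by the transcription factor Jun, the neurotrophin receptor Ngfr and growth factors such as Gdnf. Whole muscle holds little nerve tissue, and in such bulk RNA fewer cells of a type and less RNA per cell cannot be told apart.

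Pmp22 was read by a pair of probes at opposite ends of its transcript, and these gave opposite answers in some comparisons, so the first 30 bases of each are shown, 5′ to 3′ in the sense of the transcript. ILMN_2661299 starts at position 78 of the transcript and ILMN_1228535 at position 1448. The 50-base probe of S100b is shown because a single probe stands for the most used Schwann cell marker and was almost never detected. No base is in capitals, since no motif is at issue.
Pmp22 ILMN_2661299: cagtggacgcaccggagtttgtgcctgagg
Pmp22 ILMN_1228535: ggagacccgatacaaacggttcataactgc
S100b ILMN_2634742: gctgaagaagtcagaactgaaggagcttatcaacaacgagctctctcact

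Of the 12 probes, 9 were detected (detection p under 0.05) on at least 3 of the 15 arrays and entered the tests. They belong to Pmp22 (2 probes), Mbp (3), Prx (2), Ngfr (1) and Gap43 (1). The other 3 probes, those of S100b and Gfap and another probe of Prx, were detected on 1, 0 and 0 of the 15 arrays. Levels below are log2 normalized intensities. A difference is called where limma, fitted over all 14763 kept probes, gave a p under 0.05 after Benjamini-Hochberg adjustment. Levels of different probes are not on a common scale, so each probe is compared with itself across groups. Each gene of the lists used below was read by 1 probe, its kept probe with the highest mean level. Other probes of these genes may differ and are not reported here.

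**Figure D1:**
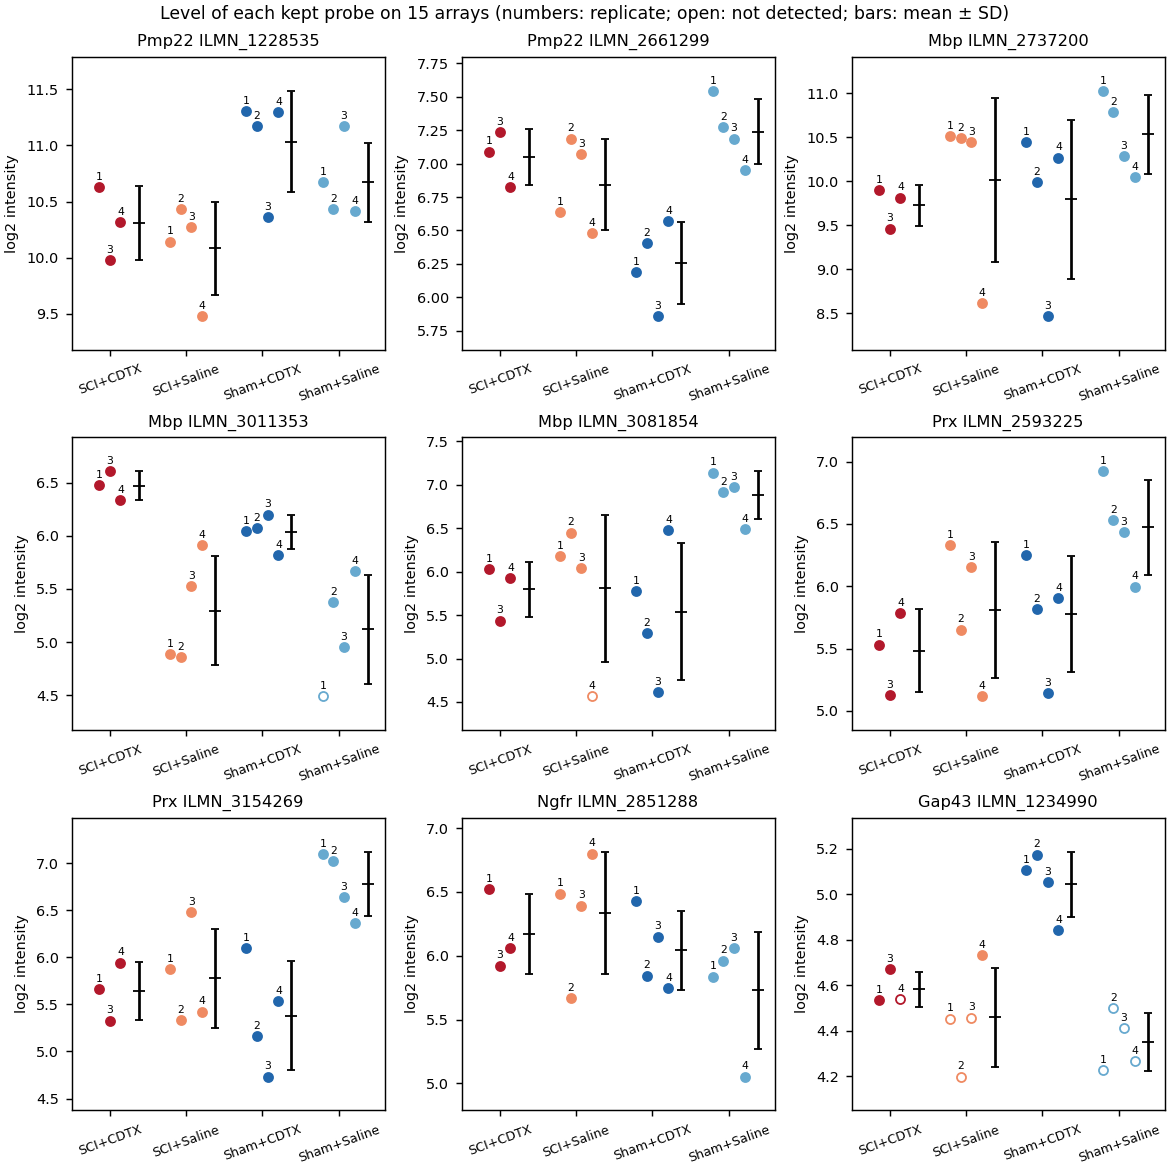
Log2 normalized intensity (vertical axis) of the 9 kept probes on 15 arrays in the 4 groups. Points carry the replicate number, open points were not detected, and bars give the mean and SD. Mbp ILMN_3011353 is higher in both CDTX groups than in both saline groups, and Gap43 was detected on all 4 Sham+CDTX arrays.

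Most called differences set a group against Sham+Saline, where both Prx probes and Mbp ILMN_3081854 were highest after quantile normalization. Their mean raw intensities, not scaled between arrays, were not highest there. For Prx ILMN_2593225 the raw mean was 132.0 in Sham+Saline and 153.5 in Sham+CDTX. CDTX in sham mice changed 6 of the 9 kept probes, where 48.9% of all kept probes were called. It raised 2 (all kept probes 23.1%) and lowered 4 (25.8%), and the groups of 5 did not overlap (45.0%). CDTX in SCI mice changed 1 of 9 (42.9%), which was higher (20.4%), and lowered 0 in limma, also at an unadjusted p under 0.05 (22.5%). The groups of 1 probe did not overlap (45.9%). SCI+CDTX against Sham+Saline gave 4 calls (46.5%), 1 higher (23.0%) and 3 lower (23.6%), and 6 without overlap (48.8%). SCI within CDTX muscle gave 3 calls (29.8%), 1 higher (14.9%) and 2 lower (14.9%), and 3 without overlap (42.6%). SCI within saline muscle gave 2 calls (29.5%), both lower (14.6%), and 1 without overlap (23.5%). The effect of CDTX differed between SCI and sham mice, as tested by the interaction, for 3 probes (23.6%), 2 higher (12.0%) and 1 lower (11.6%). Of the 6 counts of calls in either direction, those for CDTX in sham mice, SCI in CDTX muscle and the interaction were above the share over all kept probes, and the other 3 were below it. The median log2 fold change of the 9 probes was -0.69 for CDTX in sham mice and -0.01 for CDTX in SCI mice, against -0.04 and -0.05 over all kept probes. It was -0.52 for SCI in saline muscle, against -0.01 over all kept probes.

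Several facts of the whole series bear on these values. The SCI arrays were all on slide 1 and the sham arrays all on slide 2, so surgery and slide cannot be told apart, while CDTX and saline arrays shared a slide. The Sham+Saline arrays were the dimmest, with a mean raw intensity of 230.5 to 277, against 319.9 to 373.1 on the other 12. With arrays scaled by their median in place of quantile normalization, the median log2 fold change over all kept probes became 0.32 for CDTX in sham mice and 0.32 for SCI+CDTX against Sham+Saline. It became 0.17 for SCI in saline muscle, 0.06 for CDTX in SCI mice and -0.24 for the interaction. The split of the member calls moved with it. For CDTX in sham mice 2 higher and 4 lower became 4 higher and 0 lower, with 45.4% of all kept probes called higher and 7.94% lower. For SCI+CDTX against Sham+Saline 1 higher and 3 lower became 3 higher and 0 lower (all kept probes 43.7% and 9.19%). For SCI in saline muscle 2 lower became 1 higher, that of Ngfr (all kept probes 30% higher and 4.71% lower). The number of the 9 probes below the median of all kept probes was 5 for CDTX in sham mice and 6 for SCI+CDTX against Sham+Saline under both scalings. For SCI in saline muscle it was 6, and 7 under median scaling. Values under median scaling are given against 0 and, where the sign turned, also relative to this median. The labels number the replicates of a group but do not say what sets them apart, so p-values measure the spread between these samples.

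**Figure D2:**
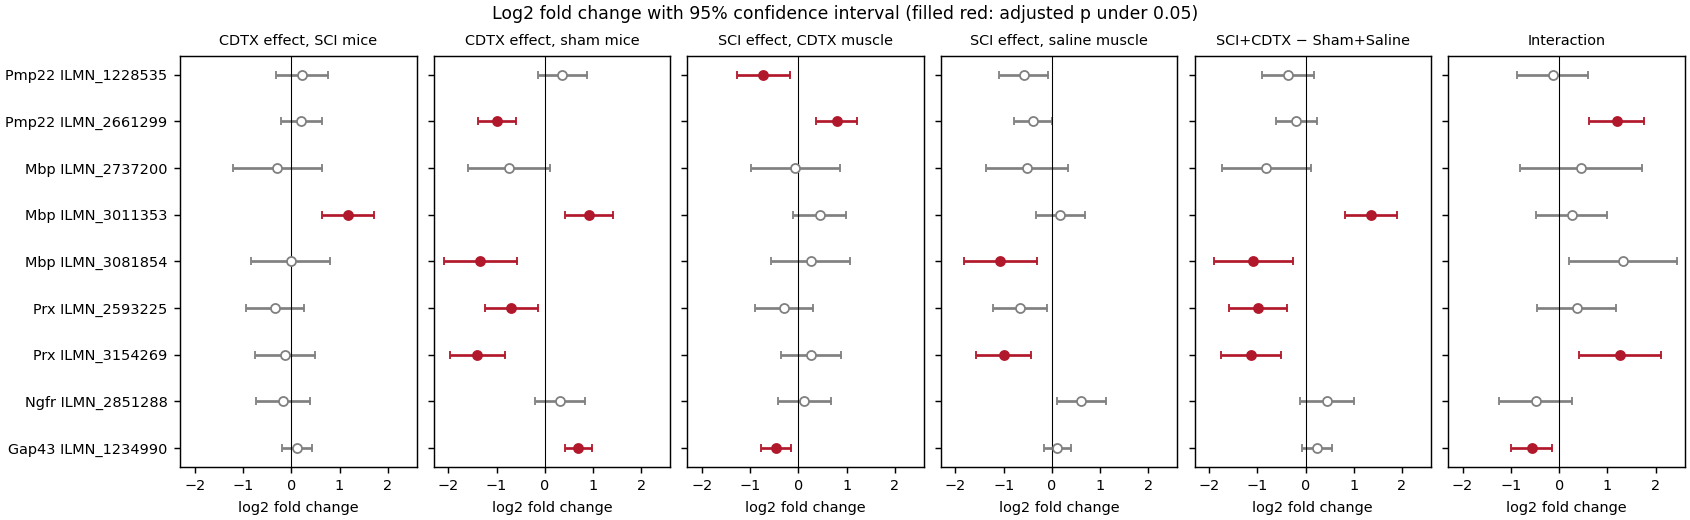
Log2 fold change (horizontal axis) with its 95% confidence interval for the 9 kept probes in the 5 comparisons and the interaction. Filled red points passed an adjusted p of 0.05. In the second panel, CDTX in sham mice, 4 filled points of Pmp22, Mbp and Prx lie below 0, and those of Mbp ILMN_3011353 and Gap43 lie above it.

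Peripheral myelin protein 22, encoded by Pmp22 (chromosome 11, band 11qB3), is a membrane protein of compact myelin that other cell types such as fibroblasts also make. The probe near the start of the transcript, ILMN_2661299, was lower in Sham+CDTX than in the other groups. It stood at 6.19, 6.40, 5.86 and 6.57 in Sham+CDTX 1 to 4 and at 7.54, 7.27, 7.19 and 6.95 in Sham+Saline 1 to 4. In SCI+CDTX 1, 3 and 4 it was at 7.09, 7.24 and 6.82, and in SCI+Saline 1 to 4 at 6.64, 7.19, 7.07 and 6.48. All 4 Sham+CDTX arrays lay below every Sham+Saline and SCI+CDTX array and overlapped with SCI+Saline. The probe fell by 0.98 with CDTX in sham mice (standard error 0.19, limma adjusted p 0.000255) and was 0.79 higher in SCI+CDTX than in Sham+CDTX (standard error 0.20, adjusted p 0.00601). With CDTX in SCI mice its log2 fold change was 0.21 (adjusted p 0.450). The interaction was 1.19 (standard error 0.28, adjusted p 0.00422). Under median scaling the fall in sham mice was -0.16 (adjusted p 0.480), while the interaction was 0.72 (adjusted p 0.0455).

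The brighter probe near the end of the same transcript, ILMN_1228535, did not follow it. It was at 11.30, 11.17, 10.36 and 11.30 in Sham+CDTX 1 to 4 and at 10.67, 10.44, 11.17 and 10.41 in Sham+Saline 1 to 4. In SCI+CDTX 1, 3 and 4 it was at 10.63, 9.98 and 10.31, and in SCI+Saline 1 to 4 at 10.14, 10.43, 10.27 and 9.48. Sham+CDTX 1, 2 and 4 were above all other arrays but Sham+Saline 3, and the groups overlapped in each comparison. Its mean was 0.73 lower in SCI+CDTX than in Sham+CDTX (log2 fold change -0.73, standard error 0.26, limma adjusted p 0.0411), the opposite direction to ILMN_2661299. The difference between the probes was not tested. CDTX in sham mice gave 0.36 (adjusted p 0.229) and SCI in saline muscle -0.59 (adjusted p 0.0724). The call in CDTX muscle was lost without any of SCI+CDTX 3 and 4 and Sham+CDTX 1, 2 and 4 (-0.56 to -0.73, adjusted p 0.0926 to 0.194) with all 16 arrays (-0.50, adjusted p 0.223) and under median scaling (-0.72, adjusted p 0.0574). Under median scaling CDTX in sham mice was called for this probe (0.71, adjusted p 0.0283).

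The gap between the Pmp22 probes set the Sham+CDTX arrays apart. Since the probes have no common scale, only its change between arrays is read. As normalized with all 16 arrays, ILMN_1228535 minus ILMN_2661299 was 4.77 ± 0.25 in Sham+CDTX (SD, n = 4; 4.49 to 5.10) and 3.42 ± 0.39 in Sham+Saline (SD, n = 4; 3.12 to 3.97). In SCI mice it was 3.25 ± 0.45 with CDTX (SD, n = 3; 2.73 to 3.53) and 3.23 ± 0.21 with saline (SD, n = 4; 2.99 to 3.50). The array the authors left out, SCI+CDTX 2, was at 4.64, inside the Sham+CDTX range and above every other SCI array. A score of such gaps was taken over 2587 genes with more than 1 kept probe, Pmp22 among them. The score, their first principal component (33.6% of their variance), moved in the same way. It was 0.35 to 0.40 on the Sham+CDTX arrays, 0.28 on SCI+CDTX 2 and -0.27 to -0.06 on the other 11. With that score as a covariate over all 16 arrays the Pmp22 calls were lost: ILMN_2661299 gave -0.25 for CDTX in sham mice (adjusted p 0.765) and 0.21 for SCI in CDTX muscle (adjusted p 0.858). With the score, 1.62% of all kept probes were called for SCI in CDTX muscle. What the score measures was not tested, and its high values coincide with the Sham+CDTX group and SCI+CDTX 2. As a covariate it therefore takes up most of what sets Sham+CDTX apart. A call lost with it, here or below, cannot show whether the difference belongs to the group or to the score.

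**Figure D3:**
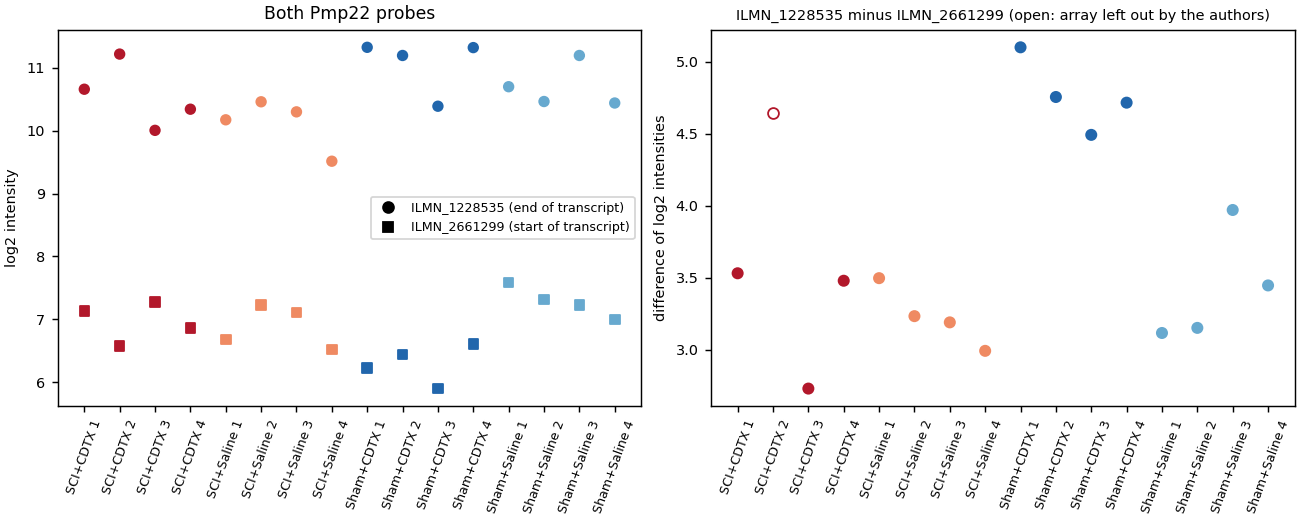
Pmp22 on all 16 arrays. Left, log2 intensity of both probes; right, their difference on each array, with the array left out by the authors as an open point. The 4 Sham+CDTX arrays (4.49 to 5.10) and SCI+CDTX 2 (4.64) stand above the other 11 arrays (2.73 to 3.97).

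Myelin basic protein, encoded by Mbp (chromosome 18, band 18qE3), holds the inner faces of the myelin membrane together, and transcripts of the same locus are also made by blood cells. Its 3 probes did not move together. In the chip's table ILMN_2737200 (position 2211) is matched to transcript variant 7, and ILMN_3011353 (position 4610) and ILMN_3081854 (position 793) to variant 8. The type codes of the latter, I and A, are Illumina's marks for a probe of a single isoform and for a probe of all isoforms. The difference between probes was not tested.

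The isoform probe ILMN_3011353 was higher with CDTX in both surgeries. It stood at 6.47, 6.61 and 6.34 in SCI+CDTX 1, 3 and 4 and at 4.89, 4.86, 5.53 and 5.91 in SCI+Saline 1 to 4. It was at 6.05, 6.08, 6.20 and 5.82 in Sham+CDTX 1 to 4 and at 4.49, 5.37, 4.96 and 5.67 in Sham+Saline 1 to 4. Within each surgery the CDTX arrays lay above the saline arrays, and on Sham+Saline 1 the probe was not detected. The log2 fold change was 1.18 in SCI mice (2.26-fold, standard error 0.26, limma adjusted p 0.00118) and 0.91 in sham mice (1.88-fold, standard error 0.24, adjusted p 0.00374). SCI+CDTX exceeded Sham+Saline by 1.35 (adjusted p 0.000261). The 3 SCI+CDTX arrays lay above all 4 Sham+CDTX arrays, a difference of 0.44 that was not called (95% confidence interval -0.10 to 0.98, adjusted p 0.228), and the interaction was 0.26 (adjusted p 0.641). These 3 calls held under all 28 alternatives. In the authors' deposited table the background-subtracted means of this probe with CDTX were 90.1 in SCI and 61.5 in sham mice, and with saline 21.0 and 15.1.

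Markers of monocytes, macrophages and fibroblasts were higher with CDTX in both surgeries. The monocyte and macrophage list was higher with CDTX for 10 of 10 kept genes in both surgeries (all kept probes 20.4% in SCI and 23.1% in sham mice). In SCI mice its summed normalized intensity was 14067.7 to 20982.4 with CDTX and 1004 to 4617 with saline. In sham mice it was 18334.9 to 21127.8 with CDTX and 1159 to 2320 with saline. Itgam, an integrin of myeloid cells, was detected on 0 of the 8 saline arrays. It was kept through CDTX arrays alone, so its direction was fixed by the filter. Of 9 lymphocyte genes 6 were kept, several of them through the SCI+CDTX arrays, and 5 of the 6 were detected on no SCI+Saline array. Cd3e, Cd3g and Cd3d were each detected on 3 SCI+CDTX arrays, 1 Sham+CDTX array and no saline array. The filter thus largely fixed that such genes were higher in SCI+CDTX and unchanged in sham mice. Their summed intensity was 244.7 to 356.2 in SCI+CDTX and 120.6 to 164.8 in SCI+Saline. CDTX in sham mice changed 0 of these 6 (median 0.07), with sums of 136.7 to 169.8 in Sham+CDTX and 119.0 to 204.2 in Sham+Saline. Of 6 kept neutrophil genes 2 were higher with CDTX in each surgery, where 20.4% of all kept probes were higher in SCI and 23.1% in sham mice. The fibroblast and fibroadipogenic progenitor list was higher with CDTX for 7 of 9 genes in both surgeries, with medians of 1.01 in SCI and 0.69 in sham mice. In sham mice 1 of the 9 was lower. The part of these cells in the Mbp value was not tested.

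The probe for all isoforms, ILMN_3081854, went the other way. It was at 7.14, 6.92, 6.97 and 6.49 in Sham+Saline 1 to 4 and at 5.78, 5.29, 4.62 and 6.48 in Sham+CDTX 1 to 4. In SCI+CDTX 1, 3 and 4 it was at 6.03, 5.44 and 5.93, and in SCI+Saline 1 to 4 at 6.18, 6.45, 6.04 and 4.57. The 4 Sham+Saline arrays were the highest of the 15, though Sham+Saline 4 and Sham+CDTX 4 nearly met, and on SCI+Saline 4 the probe was not detected. The probe fell by 1.34 with CDTX in sham mice (standard error 0.36, limma adjusted p 0.00466), by 1.07 with SCI in saline muscle (adjusted p 0.0314) and by 1.08 in SCI+CDTX against Sham+Saline (adjusted p 0.0286). With CDTX in SCI mice it gave -0.01 (95% confidence interval -0.83 to 0.81), and the interaction of 1.33 was not called (adjusted p 0.0779), though it was without Sham+CDTX 4 (1.63, adjusted p 0.0259). Without SCI+Saline 4 the change with SCI in saline muscle was -0.65 (adjusted p 0.110), and without Sham+Saline 1, 2 or 3 it was -0.99 to -1.07 (adjusted p 0.0615 to 0.0787). Without SCI+CDTX 3 the difference from Sham+Saline was -0.90 (adjusted p 0.124), and without SCI+CDTX 4 or Sham+Saline 1, 2 or 3 it was -1.0 to -1.15 (adjusted p 0.0531 to 0.0687). Under median scaling the 3 called differences were -0.60, -0.68 and -0.31 (adjusted p 0.171, 0.159 and 0.520).

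The bright Mbp probe ILMN_2737200 gave no call. It stood at 11.03, 10.78, 10.29 and 10.05 in Sham+Saline 1 to 4 and at 10.45, 9.99, 8.47 and 10.27 in Sham+CDTX 1 to 4. In SCI+Saline 1 to 4 it was at 10.51, 10.50, 10.44 and 8.62, and in SCI+CDTX 1, 3 and 4 at 9.90, 9.46 and 9.81. SCI+Saline 4 and Sham+CDTX 3 stood far below the rest of their groups, and the SCI+CDTX arrays lay just below the Sham+Saline arrays. Its log2 fold changes were -0.74 for CDTX in sham mice (95% confidence interval -1.60 to 0.11) and -0.81 for SCI+CDTX against Sham+Saline (-1.73 to 0.11; limma adjusted p 0.144 for both). Without both low arrays the latter was -0.82 (adjusted p 0.00370), and CDTX in SCI mice went from -0.29 (adjusted p 0.638) to -0.76 (adjusted p 0.0101).

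Periaxin, encoded by Prx (chromosome 7, band 7qA3), links the outer Schwann cell membrane to the basal lamina and is needed to keep myelin stable. Its kept probes ILMN_2593225 and ILMN_3154269 start at positions 4456 and 4503 of transcript variant 1, so their 50-base targets overlap only at the ends. They read the same transcript on the same arrays and are not independent. ILMN_3154269 was at 7.09, 7.02, 6.64 and 6.36 in Sham+Saline 1 to 4 and at 6.09, 5.16, 4.73 and 5.53 in Sham+CDTX 1 to 4. It was at 5.66, 5.33 and 5.94 in SCI+CDTX 1, 3 and 4 and at 5.88, 5.33, 6.48 and 5.42 in SCI+Saline 1 to 4. The Sham+Saline arrays were the highest, apart from SCI+Saline 3, which exceeded Sham+Saline 4.

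That probe fell by 1.40 with CDTX in sham mice (standard error 0.27, limma adjusted p 0.000328), by 1.00 with SCI in saline muscle (adjusted p 0.00972) and by 1.13 in SCI+CDTX against Sham+Saline (adjusted p 0.00382). In SCI mice CDTX gave -0.13 (95% confidence interval -0.75 to 0.49), and the interaction was 1.26 (adjusted p 0.0283). That interaction was lost without any of SCI+CDTX 1 and 4, SCI+Saline 2, Sham+CDTX 2 and 3 and Sham+Saline 1 and 2 (1.04 to 1.25, adjusted p 0.0540 to 0.0859). ILMN_2593225 averaged 6.47 ± 0.38 in Sham+Saline, 5.78 ± 0.47 in Sham+CDTX and 5.81 ± 0.55 in SCI+Saline (SD, n = 4 each) and 5.48 ± 0.33 in SCI+CDTX (SD, n = 3). It fell by 0.69 with CDTX in sham mice (adjusted p 0.0376) and by 0.99 in SCI+CDTX against Sham+Saline (adjusted p 0.00798), while SCI in saline muscle gave -0.66 (adjusted p 0.0696). Without SCI+CDTX 3 the difference from Sham+Saline was -0.81 (adjusted p 0.0565). Without Sham+CDTX 3 the fall in sham mice was -0.48 (adjusted p 0.152). It was also lost without Sham+CDTX 2 or 4 or Sham+Saline 1, 2 or 3 (-0.55 to -0.73, adjusted p 0.0517 to 0.125), and under median scaling it was 0.081 (adjusted p 0.802), which is -0.24 relative to the median of all kept probes. Under median scaling no comparison of either Prx probe was called, ILMN_3154269 giving -0.66 for CDTX in sham mice (adjusted p 0.0519). The remaining probe, ILMN_2766187 at position 741 of transcript variant 2, was detected on 0 of 16 arrays, at raw intensities of 88.5 to 103.

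S100b encodes a calcium-binding protein present throughout Schwann cells, and Gfap an intermediate filament of non-myelinating Schwann cells and of astrocytes. The S100b probe (ILMN_2634742, chromosome 10, band 10qC1) was detected on 1 of 16 arrays, Sham+CDTX 1, and its raw intensity lay between 91 and 107.5. The Gfap probe (ILMN_1214715, chromosome 11, band 11qE1) was detected on 0 of 16 arrays at 87.6 to 107.7. Neither probe gives a level or a fold here, and a transcript below the detection limit of these arrays would look the same. Of the astrocyte and central glia list 4 of 8 genes were kept, and Mog, Mobp and Olig2, genes of central oligodendrocytes, were not. CDTX in sham mice lowered 3 of the 4 (all kept probes 25.8%), and 0 under median scaling, where 0 also had an unadjusted p under 0.05. Among them Aqp4, a water channel of astrocytes and of muscle fibres, averaged 7.90 in Sham+Saline and 6.91 in Sham+CDTX and was detected on 0 of 3 SCI+CDTX arrays, at least 10.4-fold below Sham+Saline. Its part in the member values was not tested. None of the 5 melanocyte genes, a lineage that shares Sox10, was kept.

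Ngfr (ILMN_2851288, chromosome 11, band 11qD) encodes the low-affinity neurotrophin receptor p75, a marker of immature and repair Schwann cells. It was detected on all 16 arrays. The probe stood at 6.49, 5.67, 6.39 and 6.80 in SCI+Saline 1 to 4 and at 5.84, 5.96, 6.06 and 5.05 in Sham+Saline 1 to 4. In SCI+CDTX 1, 3 and 4 it was at 6.52, 5.92 and 6.06, and in Sham+CDTX 1 to 4 at 6.43, 5.85, 6.15 and 5.75. All groups overlapped and no comparison was called. The largest difference was 0.61 for SCI in saline muscle (95% confidence interval 0.09 to 1.12, limma adjusted p 0.0697). Under median scaling that difference was 0.89 (adjusted p 0.00751), CDTX in sham mice gave 1.02 (adjusted p 0.00154) and SCI+CDTX against Sham+Saline 1.10 (adjusted p 0.00164). The difference for SCI in saline muscle also passed without SCI+Saline 2 (0.83, adjusted p 0.0137), the lowest array of its group, without Sham+Saline 3 (0.72, adjusted p 0.0492) and with each slide normalized separately (0.71, adjusted p 0.0343). In the authors' deposited table the means were 70.4 in SCI+CDTX and 27.3 in Sham+Saline, with a p of 0.00373.

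Gap43 (ILMN_1234990, chromosome 16, band 16qB4) encodes a growth-cone protein of regrowing axons that denervated Schwann cells also make. It was near the detection limit throughout. The probe was detected on all 4 Sham+CDTX arrays, at 5.11, 5.18, 5.05 and 4.84, and on 0 of 4 Sham+Saline arrays, at 4.23, 4.50, 4.41 and 4.27. It was detected on 2 of 3 SCI+CDTX arrays (4.54, 4.67 and 4.54 in 1, 3 and 4) and on 1 of 4 SCI+Saline arrays (4.45, 4.20, 4.46 and 4.73). Every Sham+CDTX array lay above the other 11. The fitted rise with CDTX in sham mice was 0.69 (standard error 0.14, limma adjusted p 0.000333). Since the probe was kept mainly through CDTX arrays, the filter largely fixed this direction. The probe is 1 of the 2 member probes counted as raised in that comparison. Since Sham+Saline was undetected, the measured means of 5.04 and 4.35 support a bound of at least 1.20-fold, against the lowest signal detected on each Sham+Saline array. SCI+CDTX was 0.46 below Sham+CDTX (log2 fold change -0.46, adjusted p 0.0227), and the interaction was -0.57 (adjusted p 0.0452). Both were lost with all 16 arrays (-0.39 and -0.51, adjusted p 0.0694 and 0.121), where SCI+CDTX 2 stood at 4.93 and was detected. The difference from Sham+CDTX was also lost without SCI+CDTX 1 or 4 or Sham+CDTX 1, 2 or 3 (-0.41 to -0.45, adjusted p 0.0509 to 0.0812). The interaction was lost without any of 11 arrays (-0.48 to -0.60, adjusted p 0.0567 to 0.0993) and kept without SCI+Saline 2, Sham+CDTX 4, Sham+Saline 2 or Sham+Saline 3.

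The other genes of myelin and myelinating Schwann cells were lower in part. Of 16 listed genes 14 were kept. CDTX in sham mice changed 8, all lower, where 25.8% of all kept probes were (median log2 fold change -0.65, all kept probes -0.04). SCI in saline muscle changed 6, all lower (all kept probes 14.6%, list median -0.22). CDTX in SCI mice changed 3, all higher (20.4%), and the interaction 5, all higher (12.0%). Under median scaling CDTX in sham mice gave 3 higher (45.4%) and 2 lower (7.94%), with a list median of -0.14 against 0.32 over all kept probes. SCI in saline muscle then gave 3 lower (4.71%) and none higher (30%), with a median of -0.08 against 0.17. The lists were chosen with results of these data known, and their counts are a description.

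Mag, a periaxonal adhesion protein, fell by 0.92 with CDTX in sham mice (limma adjusted p 0.00132) and by 0.84 with SCI in saline muscle (adjusted p 0.00577). Pmp2, a myelin lipid carrier, fell by 0.99 with CDTX in sham mice (adjusted p 0.0101), and SCI in saline muscle gave -0.17 (adjusted p 0.725). Dhh, a ligand that Schwann cells send to the nerve sheath, fell by 1.14 with CDTX in sham mice (adjusted p 3.85e-05), with an interaction of 1.49 (adjusted p 0.000571). Drp2, the partner of periaxin at the Schwann cell membrane, fell by 1.16 with SCI in saline muscle (adjusted p 4.76e-05). Fa2h, which makes the hydroxylated fatty acids of myelin lipids, fell by 1.55 in SCI+CDTX against Sham+Saline (adjusted p 6.36e-05). Under median scaling Mag and Pmp2 were not called for CDTX in sham mice (-0.16 and -0.20), while Dhh was (-0.58).

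**Figure D4:**
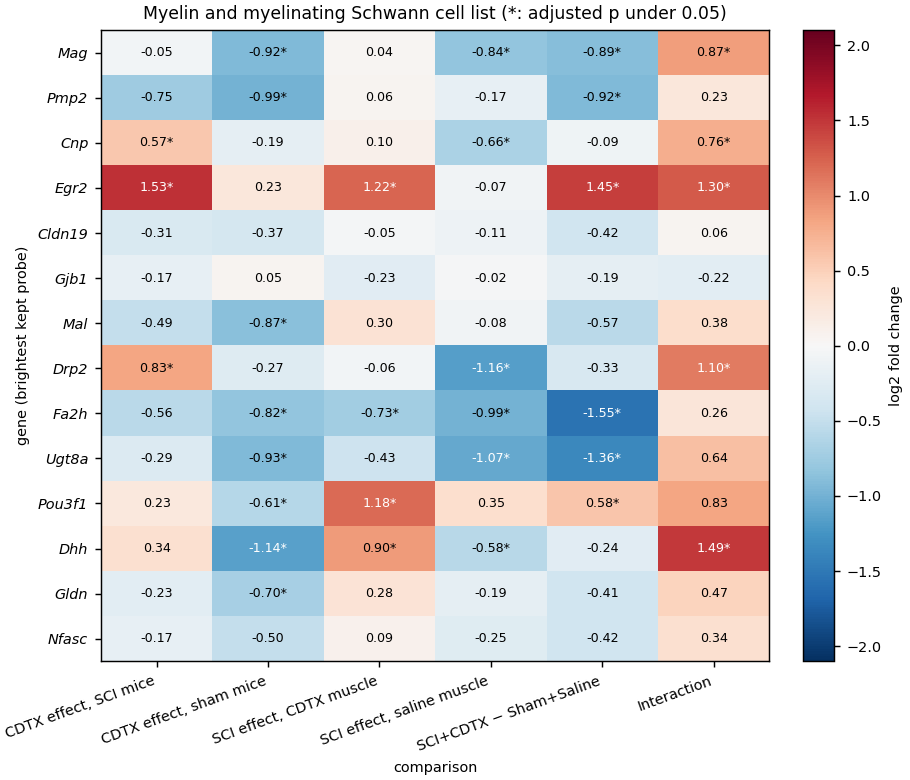
Log2 fold change (colour and number) of the 14 kept genes of the myelin and myelinating Schwann cell list in the 5 comparisons and the interaction. Stars mark an adjusted p under 0.05. The second column, CDTX in sham mice, has 8 starred genes, all negative, and the first column, CDTX in SCI mice, has 3, all positive.

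Egr2, the transcription factor that drives myelination and is also induced in macrophages, was highest in SCI+CDTX. It averaged 7.50 ± 0.10 there (SD, n = 3), against 5.98 ± 0.20 with saline (n = 4), and in sham mice 6.28 ± 0.18 with CDTX and 6.05 ± 0.14 with saline (n = 4 each). The rise with CDTX in SCI mice was 1.53 (limma adjusted p 9.3e-07) and the interaction 1.30 (adjusted p 0.000211). Pou3f1, a factor of the promyelinating stage, was 1.18 higher in SCI+CDTX than in Sham+CDTX (adjusted p 0.000626), though it was detected on 1 of 4 Sham+CDTX arrays, so that the fitted size is against a level near background. Dhh was 0.90 higher in the same comparison (adjusted p 0.00181). With the score of probe gaps as a covariate none of these 3 was called in CDTX muscle (0.18, 0.07 and 0.37).

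Some genes of the Schwann cell injury response were higher with SCI. Of 14 listed genes 9 were kept, and SCI in saline muscle changed 5, all higher (all kept probes 14.8%; median log2 fold change 0.71, all kept probes -0.01), also 5 under median scaling. Shh was kept through SCI arrays alone and Olig1 through 6 SCI arrays and 1 other, so their direction was fixed by the filter, and both count among the 5. Gdnf, a survival factor for motor neurons, had a fitted rise of 1.70 (limma adjusted p 7.74e-06) against Sham+Saline, where 1 of 4 arrays detected it, so the size is against a level near background. Jun, a transcription factor induced in many stressed cells, rose by 1.19 (adjusted p 5.92e-05). Shh, Artn and Olig1, a signalling ligand, a Gdnf relative and a transcription factor, were detected on 0 of 4 Sham+Saline arrays and on 3, 4 and 3 of 4 SCI+Saline arrays. SCI+Saline exceeded Sham+Saline by at least 1.13-fold, 1.32-fold and 1.41-fold. For Artn the limma fit of the measured means, not of this bound, gave an adjusted p of 0.000640. Olig1 is named because the count is small, after its values were seen. In CDTX muscle SCI raised 2 of the 9 (all kept probes 14.9%), Jun by 1.13 (adjusted p 0.000204) and Shh by at least 1.61-fold. Shh was detected on 0 of 4 Sham+CDTX and 3 of 3 SCI+CDTX arrays, so the filter fixed its direction here as well. CDTX in sham mice raised Gdnf by 0.81 against the same Sham+Saline arrays (adjusted p 0.00365) and Tnc, a matrix protein of injured tissue, by 1.57 (adjusted p 0.00708), and Egfl8, an endothelial and Schwann cell gene, fell by 0.42 (adjusted p 0.0341; -0.32 and not called without Sham+CDTX 3). Of the 9, Gdnf had a called interaction, of -1.18 (adjusted p 0.0093). With the score of probe gaps as a covariate SCI in CDTX muscle gave 0.09 for Jun, which was not called.

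Of the Schwann cell lineage list 4 of 14 genes were kept, and Cdh19, Sox2 and Foxd3 were not. Erbb3, the neuregulin receptor of Schwann cells, had no probe under that symbol and is not analysed here. Ncam1, an adhesion molecule of non-myelinating Schwann cells that denervated muscle fibres also make, rose by 1.16 with SCI in saline muscle (limma adjusted p 0.000145) and by 0.68 in CDTX muscle (adjusted p 0.0167). It fell by 0.52 with CDTX in SCI mice (adjusted p 0.0456), a change that was -0.43 and not called without SCI+Saline 4. The rise in CDTX muscle was 0.46 and not called with all 16 arrays. The other 3 kept genes of the list gave no call in any comparison.

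Among partners of Ngfr, 4 of 10 listed genes were kept. Sort1, its co-receptor, gave no call at its kept probe with the highest mean level, and its other kept probes are not reported here. Ntrk2, the receptor of brain-derived neurotrophic factor, fell by 0.93 with SCI in saline muscle (limma adjusted p 4.66e-05). It fell by 0.44 with CDTX in sham mice (adjusted p 0.0121), which was 0.40 under median scaling and 0.074 relative to the median of all kept probes. Ngfrap1 and Maged1, which encode proteins that bind the p75 receptor and are made by many cell types, rose with CDTX by 1.33 and 1.19 in SCI mice and by 2.00 and 1.08 in sham mice.

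Of 16 axon and growth genes 8 were kept. The neurofilament genes Nefl and Nefm, and Basp1, a growth-cone protein related to Gap43, were not kept, while Gap43 itself was near the detection limit. Stmn2, a tubulin regulator of growing axons, averaged 4.77 to 5.06 in the 4 groups and gave no call. Uchl1, a neuronal ubiquitin hydrolase, rose by 1.13 with SCI in saline muscle (limma adjusted p 0.000672) and by 0.92 in CDTX muscle (adjusted p 0.00608; 0.08 and not called with the score of probe gaps). Marcks and Atf3, a membrane-cytoskeleton protein and a stress transcription factor that are not limited to neurons, rose with CDTX by 1.41 and 0.76 in SCI mice and by 1.52 and 1.71 in sham mice.

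Genes of the nerve sheath were kept for 8 of 9. CDTX in sham mice gave 2 higher (all kept probes 23.1%) and 3 lower (25.8%). SCI in saline muscle gave 1 higher (14.8%) and 4 lower (14.6%). Itgb4, the laminin-binding integrin of perineurial cells and Schwann cells, fell by 1.30 with CDTX in sham mice (limma adjusted p 0.00058) and by 1.36 with SCI in saline muscle (adjusted p 0.000903), with an interaction of 2.08 (adjusted p 0.000963). Cldn1, the tight-junction protein of perineurium and of epithelia, fell by 0.86 with SCI in saline muscle (adjusted p 0.000185). Under median scaling CDTX in sham mice lowered 0 of the 8 in the limma fit (all kept probes 7.94%) and raised 2 (45.4%). None of the 8 was lower at an unadjusted p under 0.05. Of 7 endothelial genes 4 were lower with CDTX in sham mice (all kept probes 25.8%) and 6 with SCI in saline muscle (14.6%). Its summed intensity was 1467.6 to 1855.0 in Sham+Saline, 905.0 to 987.1 in Sham+CDTX and 994.1 to 1134.7 in SCI+Saline. Of 6 adipocyte genes 4 were kept. CDTX in sham mice lowered 3 of these (all kept probes 25.8%, list median -0.68) and SCI in saline muscle 1 (14.6%). With SCI in CDTX muscle 3 were higher (14.9%), and in the interaction 2 (12.0%). Their summed intensity was 1570.0 to 1775.1 in Sham+Saline, 604.9 to 1431.7 in Sham+CDTX and 1727.7 to 2149.5 in SCI+CDTX. The part of both cell types in the member values was not tested.

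In each group 1 array was the lowest for most member probes. SCI+Saline 4 was the lowest of its group for 5 of the 9 member probes and 8 of the 14 myelin genes, and Sham+CDTX 3 for 6 of 9 and 8 of 14. SCI+CDTX 3 was the lowest for 6 of 9 and 9 of 14, and Sham+Saline 4 for 7 of 9 and 5 of 14, the latter as many as Sham+Saline 2. The median gap to the group's other arrays over the 9 probes was -0.85 for Sham+CDTX 3, -0.52 for Sham+Saline 4, -0.48 for SCI+Saline 4 and -0.39 for SCI+CDTX 3. On SCI+Saline 4, Pmp2 was at 5.55, against 6.90 to 7.11 on the group's other arrays, while Ngfr (6.80) and Jun (8.39) were the highest of the group. On Sham+CDTX 3, Pmp2 was at 4.94, against 5.95 to 6.28. Other lists stood apart on some of these arrays. The median gap over 6 neutrophil genes was 5.37 on Sham+Saline 4 and 3.73 on SCI+Saline 4. Over 10 monocyte and macrophage genes it was 1.17 on SCI+Saline 4, 0.54 on Sham+Saline 4 and 0.54 on SCI+CDTX 3. Over 9 fibroblast genes it was 0.51 on Sham+Saline 4, and over 4 adipocyte genes -0.68 on Sham+CDTX 3. The part of these cells, and of the amount of nerve in each sample, was not tested.

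**Figure D5:**
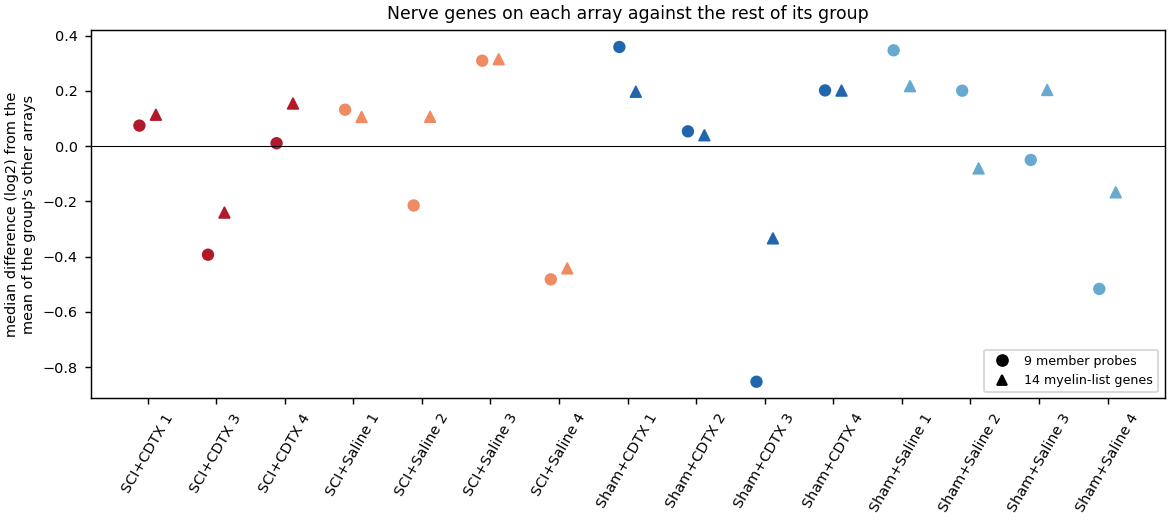
Median log2 difference of each array from the mean of the other arrays of its group (vertical axis), for the 9 member probes (circles) and the 14 kept myelin genes (triangles). The lowest circle of each group is at -0.85 (Sham+CDTX 3), -0.52 (Sham+Saline 4), -0.48 (SCI+Saline 4) and -0.39 (SCI+CDTX 3).

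Leaving out SCI+Saline 4 and Sham+CDTX 3 together, a choice made after seeing the data, kept the direction of all 19 called differences, and 3 lost their call. Those were the interactions of Gap43 and Prx ILMN_3154269 and the fall of Prx ILMN_2593225 with CDTX in sham mice. The fall of ILMN_3154269 of Prx with CDTX in sham mice was then -1.17 (limma adjusted p 0.00158) and that of Mbp ILMN_3081854 -1.03 (adjusted p 0.0019). Pmp22 ILMN_1228535 was then 0.95 lower in SCI+CDTX than in Sham+CDTX (-0.95, adjusted p 0.00240) and 0.59 higher with CDTX in sham mice (adjusted p 0.0196).

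For each member probe with a call, the 3 kept probes of other genes with the closest profile were found by the root mean square difference of centred log2 levels over the 15 arrays. Mag was among the 3 closest to both Prx probes (0.23 for ILMN_2593225 and 0.32 for ILMN_3154269) and to Mbp ILMN_3081854 (0.39). Fa2h was the second closest to Prx ILMN_2593225 (0.30), and Pmp2 the third closest to Mbp ILMN_3081854 (0.40). The neighbours of Mbp ILMN_3011353 were Rasgrp1, Myo7a and Svep1 (0.21, 0.22 and 0.23), none of them on the myelin list. Gap43 lay closest to Cd209a, Mink1 and Prdx5 (0.13, 0.14 and 0.14), Pmp22 ILMN_2661299 to Slc36a2, Rab7 and Cdh1 (0.18, 0.20 and 0.21), and Pmp22 ILMN_1228535 to Agtr1a, Atp5a1 and Pdss1 (0.31, 0.32 and 0.32). For scale, the root mean square of each member's own centred profile was between 0.30 for Gap43 and 0.76 for Mbp ILMN_3081854.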

How the data were processed

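Per the submitters' processing notes, the authors read the arrays with GenomeStudio version 2011.1. The authors deposited for each array the mean bead intensity per probe without normalization, its standard error and bead number, and a detection p-value. They also deposited a table of group means after average normalization and background subtraction, with a p-value of each group against SCI+CDTX. In R 4.3.3, limma 3.58.1 corrected the background and quantile-normalized log2 intensities with neqc and an offset of 16, which lowers the fold of dim probes. A probe was kept if 3 or more of the 15 arrays had a detection p under 0.05. Group means were fitted with lmFit and eBayes over all 4 groups, adjusted p-values use Benjamini-Hochberg over the kept probes, and the fit was tested on simulated data. Gene symbols of list genes were updated through RefSeq by Entrez ID, which 23681 probes matched.

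Besides the members, the genes named are a set of nerve genes given in every comparison and, per list and comparison, up to 2 highest and 2 lowest called genes, with the 3 nearest profiles of each called member. Some genes of the lists are not reported here and were left out of the counts. The members and lists were chosen with earlier results of these data known. Replicate numbers were checked as pairs: deviations of same-numbered arrays had mean correlations of -0.05 to 0.04, with single pairs from -0.27 to 0.38. So few pairs cannot show whether the numbers mark a pairing, and counts with a replicate block are given below. The genome build is not given in the sources used here, so positions are within transcripts. The number of arrays limits the precision.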

Additional observations from a re-analysis of the deposited data

Results flagged for a closer look

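Among the 27 tests of a single array against its group of 4, of which chance would single out about 1 in 20, 2 arrays stood apart. For Mbp ILMN_2737200, SCI+Saline 4 lay at 8.62, with a gap to the next array of 0.96 of the group's range. For Pmp22 ILMN_1228535, Sham+CDTX 3 lay at 10.36, with a gap of 0.86 of the range. The same arrays were low for other myelin genes, each being the lowest of its group for 8 of 14.

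The effect of CDTX differed between SCI and sham mice for 3 probes, as tested by the limma interaction. It was 1.19 for Pmp22 ILMN_2661299 (adjusted p 0.00422), 1.26 for Prx ILMN_3154269 (adjusted p 0.0283) and -0.57 for Gap43 (adjusted p 0.0452). The Gap43 value rests on saline groups detected on 0 of 4 and 1 of 4 arrays, is a fitted value near background, and lost its call in 18 of 27 alternatives. SCI and sham arrays were on different slides. Each effect of CDTX was measured within a slide, but the interaction compares the effects between slides. A difference between surgeries thus cannot be told apart from one between slides. Under median scaling the median interaction over all kept probes went from -0.01 to -0.24, and Prx ILMN_3154269 lost its call.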

How the results depend on the processing

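Of the 19 called differences, 3 kept their direction and call under all 28 alternatives, 15 of which left out 1 array: those of Mbp ILMN_3011353 for CDTX in SCI mice (0.47 to 1.5), CDTX in sham mice (0.32 to 2.12) and SCI+CDTX against Sham+Saline (0.52 to 1.80). With the score of probe gaps, SCI in CDTX muscle turned to 0.20 for Pmp22 ILMN_1228535. Under median scaling, Prx ILMN_2593225 was at 0.081 for CDTX in sham mice, which is -0.24 relative to the median of all kept probes, and Pmp22 ILMN_2661299 turned from -0.19 to 0.57 in SCI+CDTX against Sham+Saline (0.25 relative to that median). The cause was not tested.

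For CDTX in SCI mice the count of called probes was 1, and 2 under median scaling and without SCI+Saline 4 and Sham+CDTX 3 together. For CDTX in sham mice it was 6 (2 higher), and 4 under median scaling, all higher, and 1 with the score. For SCI in CDTX muscle it was 3, and 1 with all 16 arrays, 1 without background correction and 0 with the score. For SCI in saline muscle it was 2, and 1 each with array weights, median scaling, no detection filter and a trended, robust variance; the 1 under median scaling was Ngfr, higher, and both lower calls were lost. For SCI+CDTX against Sham+Saline it was 4 (1 higher), and 3 under median scaling, all higher, and 1 with the score. For the interaction it was 3, and 0 with the score and 1 without both arrays. At the counts of 0 in limma, 0 members also had an unadjusted p under 0.05.

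Leaving out 1 array gave 5 to 6 for CDTX in sham mice, 1 to 3 for SCI in CDTX muscle (1 without SCI+CDTX 4), 1 to 3 for SCI in saline muscle (1 without SCI+Saline 4), 2 to 4 for SCI+CDTX against Sham+Saline (2 without SCI+CDTX 3) and 1 to 4 for the interaction. With the replicate block the 6 counts were 1, 6, 2, 2, 4 and 2, and 2 calls were lost, those of Pmp22 ILMN_1228535 in CDTX muscle and of the Gap43 interaction. Fold changes of dim probes, Gap43 above all, are compressed near background.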

Other observations

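On the array the authors left out, SCI+CDTX 2, normalized with all 16 arrays, Pmp22 ILMN_1228535 was at 11.22 and ILMN_2661299 at 6.58. The Mbp probes ILMN_2737200, ILMN_3011353 and ILMN_3081854 were at 9.99, 5.69 and 5.87, the Prx probes ILMN_2593225 and ILMN_3154269 at 5.76 and 5.71, Ngfr at 6.21 and Gap43 at 4.93. Its weight among the 16 arrays was 0.23, against 1.81 for Sham+CDTX 3 and 0.64 for SCI+Saline 4.

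In the authors' deposited table the mean of Gap43 was 20.8 in Sham+CDTX, 9.0 in SCI+CDTX and 1.1 in Sham+Saline. The authors' p for Sham+CDTX against SCI+CDTX was 0.0719 for Gap43 and 0.0720 for Pmp22 ILMN_1228535, both called lower in SCI+CDTX by limma. That p was 0.0417 for Mbp ILMN_3011353, which limma did not call there. For Pmp22 ILMN_2661299 the authors' deposited table gave 139.5 in SCI+CDTX and 75.0 in Sham+CDTX (its p 0.00206). It gave 81.9 in SCI+Saline (its p against SCI+CDTX 0.0134), where limma gave 0.21 (adjusted p 0.450). For SCI+CDTX against Sham+Saline its p was 0.104 for Mbp ILMN_3081854. For Prx ILMN_2593225 and ILMN_3154269 it was 0.295 and 0.0647, and limma called all of these lower.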
